A study of Chlorocebus sabaeus with 3 samples.

Results

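Prostaglandins are short-range lipid signals made from arachidonic acid, a membrane fatty acid that phospholipases set free. The cyclooxygenases turn it into an unstable intermediate, separate synthases convert that intermediate into the E, D, F and I series, and a dehydrogenase inactivates the products. In fetal membranes, decidua and myometrium they are known for their part in cervical ripening, membrane rupture and labour, and the amnion is a known source of prostaglandin E2. The genes described here are 10 such enzymes and receptors, taken by name from the first column of each expression table, out of 33994 genes in all. They are the cyclooxygenases PTGS1 and PTGS2, the prostaglandin E synthases PTGES, PTGES2 and PTGES3, and the haematopoietic prostaglandin D synthase HPGDS. HPGD is the inactivating dehydrogenase, and PTGER2, PTGER4 and PTGFR are receptors for prostaglandin E2 and prostaglandin F2 alpha.

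Cell-free RNA was sequenced from amniotic fluid supernatant of 3 vervet monkey pregnancies, an Old World primate. The stillborn pregnancy has the sex label M, the spontaneous abortion the sex label NA and the live pregnancy the sex label F. No drug or genetic change is named for any group, and the sources used here do not state gestational age. Each status has 1 library, so libraries are set against each other without a p-value, and no difference here is one between conditions. Values are RPKM as deposited, reads scaled to gene length and to the assigned reads of the library. The libraries held 17749954 assigned reads (stillborn), 29926352 (spontaneous abortion) and 20220899 (alive), totals recovered from the steps in the RPKM values. Read numbers per gene recovered in the same way are lower bounds, so the 95% intervals are the widest that the values allow. They cover the counting error of reads only. Simple and amnion epithelial markers were present throughout, with 8 of 8 genes at an RPKM of at least 1 in each library. Since the fluid holds RNA from many cell types, fewer cells of a type and less RNA per cell cannot be told apart.

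Of the 10 genes, 7 were above 0 in every library and 1, PTGER2, was listed at 0 in all of them. An RPKM of at least 1 was reached by 4 members (stillborn), 4 (spontaneous abortion) and 5 (alive). Over the whole table that level was reached by 9945, 10156 and 10215 genes. The dehydrogenase HPGD and the inducible synthase PTGES carried most of the signal, together with HPGDS in the stillborn and alive fluid. Both cyclooxygenases and the receptor PTGFR were near the limit of detection. RPKM places genes on a scale per length only roughly here, because the gene lengths implied by the values grow with the number of annotated transcripts. HPGD, PTGES and PTGES2 each have 1 transcript in the RefSeq table, HPGDS has 2 and PTGES3 has 4.

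**Figure D1:**
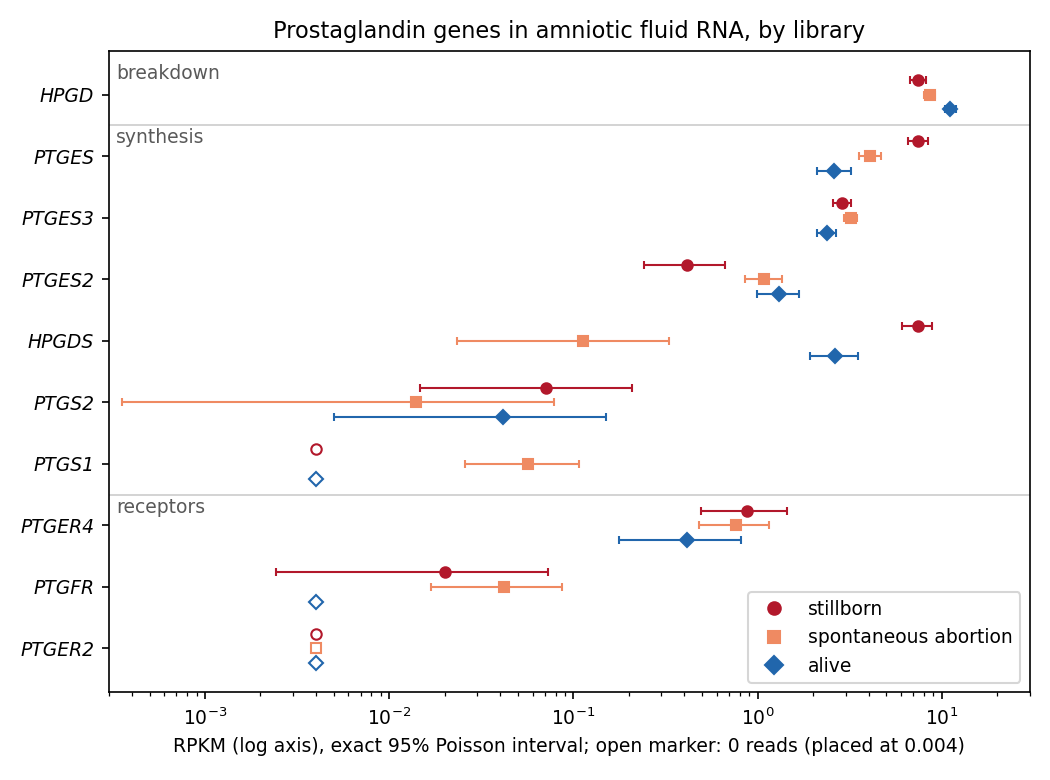
RPKM of the 10 prostaglandin genes on a log axis, with 1 marker per library and exact 95% Poisson intervals from the recovered reads. HPGD lies between 7.43 and 11.1 in every library, HPGDS spreads from 0.113 to 7.38, and open markers stand for 0 reads.

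The cyclooxygenases catalyse the first committed step, PTGS1 as the constitutive and PTGS2 as the inducible form. PTGS2 was at RPKM 0.0709 (stillborn), 0.0140 (spontaneous abortion) and 0.0415 (alive), on at least 3, 1 and 2 reads. With read numbers this small no fold is given, and the 3 intervals overlapped. PTGS1 was at RPKM 0.0564 in the spontaneous abortion library, on at least 9 reads, and at 0 in the others. Its 0 reads allow an RPKM of up to 0.0317 in the stillborn and 0.0278 in the alive library, taking 3 reads as the limit. The scaled ratio of the spontaneous abortion to the other libraries has no upper bound, and the exact interval on 9 against 0 reads reached down to 1.37-fold against the alive and 1.08-fold against the stillborn library.

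PTGES, the membrane-bound and inducible prostaglandin E synthase that works with PTGS2, stood at RPKM 7.44 (stillborn), 4.09 (spontaneous abortion) and 2.61 (alive). These rest on at least 235, 218 and 94 reads, with intervals of 6.52 to 8.46, 3.57 to 4.68 and 2.11 to 3.20. The 3 intervals did not overlap, and the order was stillborn, spontaneous abortion, alive. Markers of squamous epithelium summed to RPKM 908, 522 and 360 over 10 genes, the same order, with none at 0. KRT6A alone was at 588, 254 and 135 of these sums. KRT6A, KRT14, SPRR3, CRNN and IVL shared the order, while KRT4, KRT5, KRT13, SFN and TGM1 did not. SFN ran the other way, at 20.3, 25.0 and 27.3. Of the 10 genes, KRT6A, KRT14, SPRR3 and CRNN were apart as higher in stillborn against alive by the rule given further on. SPRR3 was higher by 57.7-fold (47.5 to 71.0) and CRNN by 33.2-fold (27.9 to 39.7). KRT5 was lower there, by 2.75-fold (2.68 to 2.82). Their part in the PTGES difference was not tested. After scaling between libraries by TMM, which trims extreme genes before it sets a common level, PTGES was 3.18-fold higher in the stillborn than in the alive library (95% interval 2.5 to 4.09). The spontaneous abortion was 1.61-fold above the alive library (1.26 to 2.07) and the stillborn 1.98-fold above the spontaneous abortion (1.64 to 2.39).

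PTGES2, a second membrane-associated E synthase, ran the other way. It was at RPKM 0.413 (stillborn), 1.08 (spontaneous abortion) and 1.30 (alive), on at least 17, 75 and 61 reads. The stillborn library was low, 2.82-fold under the alive (1.63 to 5.15) and 2.41-fold under the spontaneous abortion library (1.41 to 4.35). The other two could not be separated, at 1.17-fold (0.821 to 1.66). PTGES3, the cytosolic E synthase also known as the HSP90 co-chaperone p23, had more reads than PTGES2. Its RPKM was 2.87, 3.19 and 2.37 in the same order of libraries, on at least 299, 561 and 282 reads. It was 1.35-fold (1.14 to 1.59) and 1.38-fold (1.2 to 1.60) higher in the stillborn and the spontaneous abortion than in the alive fluid, and the losses did not differ beyond counting error, at 1.02-fold (0.888 to 1.18). A related gene, PTGES3L, is listed separately in the tables. Reads that PTGES3 shares with near-identical copies elsewhere in the genome cannot be told apart in these values.

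HPGDS, which makes prostaglandin D2 in mast cells, antigen-presenting cells and other cells of blood origin, differed most between the libraries among the 5 members with at least 30 reads. It was at RPKM 7.38 (stillborn), 0.113 (spontaneous abortion) and 2.62 (alive), on at least 116, 3 and 47 reads. The spontaneous abortion library was low and its interval, 0.0233 to 0.331, lay well under those of the stillborn (6.10 to 8.85) and the alive library (1.93 to 3.49). The scaled ratio was 70.9-fold between the stillborn and the spontaneous abortion (23.7 to 349). It was 22.6-fold between the alive and the spontaneous abortion (7.26 to 113), and 3.14-fold between the stillborn and the alive library (2.22 to 4.51).

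**Figure D2:**
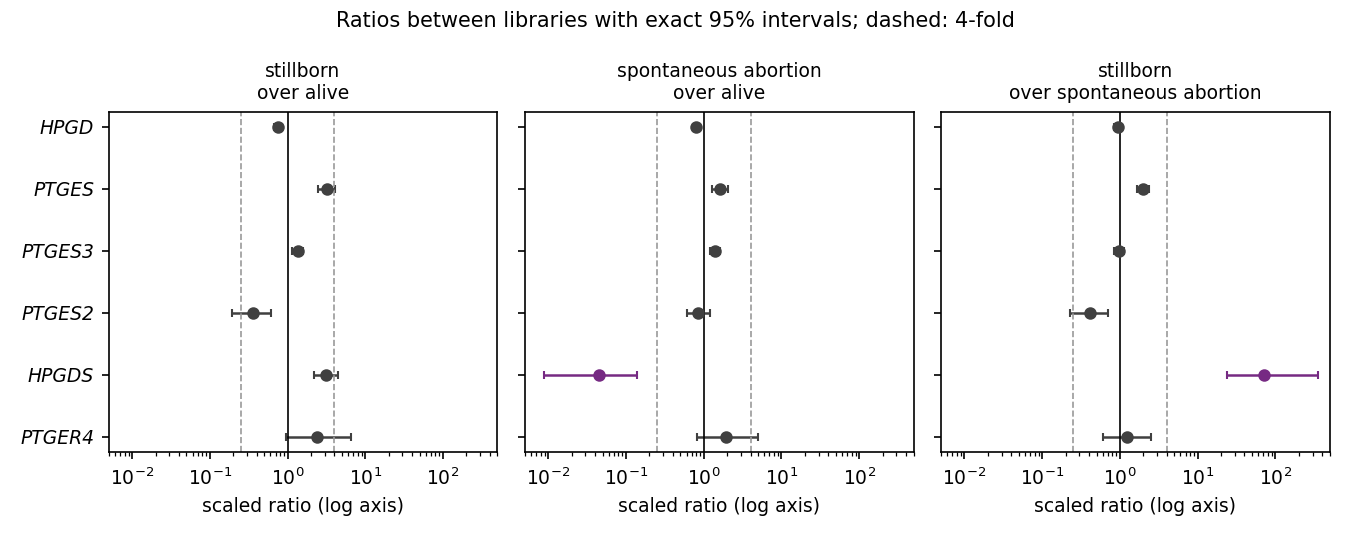
Scaled ratios between pairs of libraries on log axes, with exact 95% intervals, for the 6 genes with over 3 reads in the higher library of every pair. Dashed lines mark 4-fold and purple points are apart by the rule of the text. HPGDS is apart in both pairs with the spontaneous abortion library.

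Leukocyte markers were set beside HPGDS. Of 11 measured monocyte and macrophage markers, 9 were lowest in the spontaneous abortion library, and their summed RPKM was 58.7 (stillborn), 13.3 (spontaneous abortion) and 19.6 (alive). No marker of that list was at 0 in any library. In spontaneous abortion against alive, where HPGDS was 22.6-fold lower, CD14 was the 1 marker of the list that was apart, 8.48-fold lower (4.15 to 19.6). TYROBP was lower by 4.525-fold (1.87 to 12.5), C1QB by 5.28-fold (1.395 to 29.5) and C1QC by 5.76-fold (1.55 to 31.8). These 3 had under 30 reads in the higher library, too few for the rule. FCER1G was 2.42-fold lower (2.02 to 2.91) and CD163 3.46-fold (1.59 to 8.10). C1QA, on at least 1 and 4 reads, was within counting error. PTPRC, CSF1R, CD68 and LYZ differed there by 1.01-fold to 1.28-fold, within counting error. FCER1G, the Fc receptor gamma chain, was at RPKM 20.8, 2.49 and 6.20, again in that order. TYROBP, a signalling adaptor of myeloid cells, was at 4.39, 0.280 and 1.31, and the macrophage sialomucin CD68 at 14.9, 5.46 and 4.37. The 4 of 6 listed mast cell markers that were measured had a summed RPKM of 0.0807, 0.111 and 0.0404. The tryptases TPSAB1 and TPSB2 of that list were not measured. HDC, the histidine decarboxylase of that list, was at 0 in all libraries, the carboxypeptidase CPA3 at 0 in the spontaneous abortion and alive libraries, and the IgE receptor chain MS4A2 at 0 in the alive library. Neutrophil markers summed to 20.5, 3.39 and 1.27 over 7 of 8 listed genes, of which S100A12 was at 0 throughout, CSF3R in the stillborn and alive, TREM1 in the spontaneous abortion, and S100A8 and MMP8 in the alive library. The mast cell and neutrophil sums were higher in spontaneous abortion than in alive fluid. KIT alone, on at least 61 and 21 reads, was at RPKM 0.0793 and 0.0404 of these mast cell sums. MS4A2 had at least 4 and 0 reads, so the mast cell sums rest on few reads. In the neutrophil list TREM1, at 0 and 0.155, and CXCR2, at 0.0136 and 0.0201, went the other way. What these cells add to the HPGDS values was not tested. Platelet markers summed to 1.16, 0.490 and 0.590 over 5 of 6 listed genes, with GP9 at 0 throughout, ITGA2B in the spontaneous abortion and alive, GP1BB in the stillborn and PPBP in the alive library. Of the decidual markers, IGFBP1 was 29.6-fold lower in spontaneous abortion against alive (23.7 to 37.4). PRL, at 0 against 14 reads, and HAND2 were also lower. FOXO1 was 2.07-fold (1.69 to 2.55) and WNT4 3.30-fold higher (1.52 to 8.19), and LEFTY2 had at least 1 and 0 reads. The part of decidua in the HPGDS values was not tested.

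Set against FCER1G within each library, HPGDS had an RPKM ratio of 0.354 in the stillborn (0.290 to 0.430), 0.423 in the alive (0.305 to 0.576) and 0.0454 in the spontaneous abortion library (0.00928 to 0.135). The stillborn and alive ratios overlapped and the spontaneous abortion ratio lay under both. Against CD68 the ratios were 0.497 (0.391 to 0.628), 0.60 (0.404 to 0.886) and 0.0207 (0.00422 to 0.0620), in the same order of libraries. Against TYROBP all 3 intervals overlapped, at 1.68 (1.23 to 2.31), 2.01 (1.19 to 3.50) and 0.403 (0.0673 to 1.77). These partner genes were picked with their values known, and their part in the HPGDS difference was not tested. CD14, C1QB and C1QC were not used as partners. They were lower by more than FCER1G in spontaneous abortion against alive, at 8.48-fold, 5.28-fold and 5.76-fold.

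**Figure D3:**
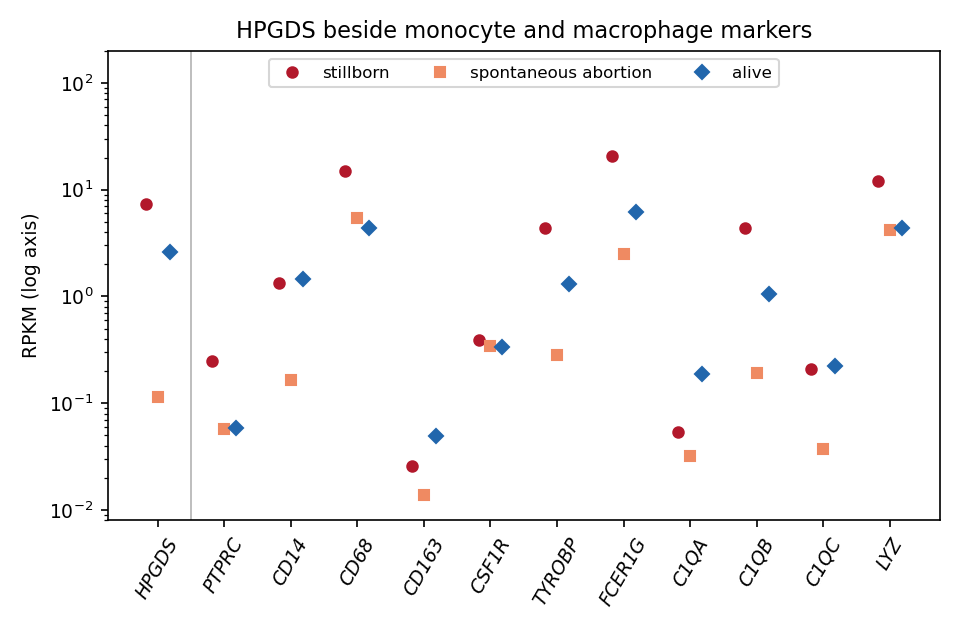
RPKM of HPGDS and of 11 monocyte and macrophage markers on a log axis, with 1 marker per library. HPGDS, FCER1G, TYROBP, C1QB, PTPRC and LYZ share the order stillborn, alive, spontaneous abortion. CD68, at 4.37, and CSF1R are lowest in the alive library, while CD14, CD163, C1QA and C1QC are highest there.

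HPGD, the 15-hydroxyprostaglandin dehydrogenase that starts the inactivation of prostaglandins, had the highest RPKM of the 10 genes in the spontaneous abortion and alive libraries and a value level with PTGES and HPGDS in the stillborn. It was at RPKM 7.43 for the stillborn (6.74 to 8.18), 8.62 for the spontaneous abortion (8.05 to 9.23) and 11.1 for the alive library (10.3 to 12), on at least 425, 831 and 725 reads. The alive library was highest and its interval overlapped neither loss. The markers of simple and amnion epithelium summed to RPKM 642, 971 and 1293, the same order, which KRT7, KRT8, KRT17, KRT18 and KRT19 shared and EPCAM, CDH1 and CLDN4 did not. Their part in the HPGD difference was not tested. HPGD placed at the percentiles 79.8, 82.0 and 83.2 of the genes above 0, in that order. The scaled ratio to the alive library was 1.34-fold lower in the stillborn (1.19 to 1.51) and 1.26-fold lower in the spontaneous abortion (1.14 to 1.39). Between the losses it was 1.07-fold (0.948 to 1.2), within counting error.

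Because PTGES was highest where HPGD was lowest, the ratio of synthase to dehydrogenase RPKM, which needs no scaling between libraries, was spread further than either gene. PTGES over HPGD was 1.0 for the stillborn (0.850 to 1.18), 0.475 for the spontaneous abortion (0.407 to 0.552) and 0.235 for the alive library (0.187 to 0.291). None of these intervals overlapped. PTGIS, the prostacyclin synthase, kept close to HPGD instead, at ratios of 0.821 (0.688 to 0.977), 0.851 (0.752 to 0.962) and 0.836 (0.731 to 0.953), and all 3 overlapped. These pairs were also chosen with the values known. RNA ratios of this kind are not a measure of enzyme activity or of prostaglandin in the fluid.

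**Figure D4:**
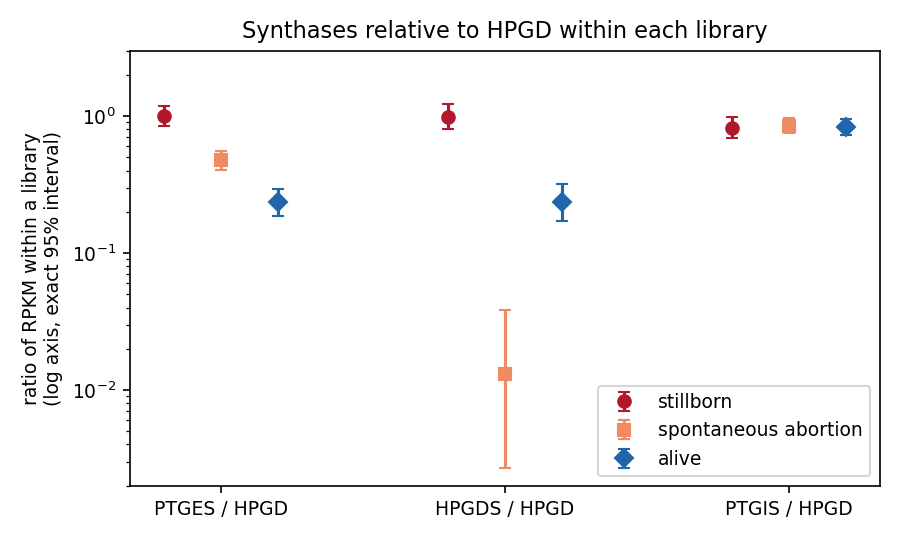
RPKM of PTGES, HPGDS and PTGIS divided by that of HPGD within each library, on a log axis with exact 95% intervals. PTGES over HPGD goes from 1.0 in the stillborn to 0.235 in the alive library, while PTGIS over HPGD stays between 0.821 and 0.851.

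Receptor RNA was scarce. PTGER4, a prostaglandin E2 receptor that signals through cyclic AMP, was at RPKM 0.878 (stillborn), 0.764 (spontaneous abortion) and 0.411 (alive), on at least 15, 22 and 8 reads. All 3 intervals overlapped, and the 2.39-fold ratio of stillborn to alive was within counting error (0.950 to 6.50). PTGFR, the receptor for prostaglandin F2 alpha through which the uterus contracts, was at RPKM 0.0202 and 0.0418 in the stillborn and the spontaneous abortion, on at least 2 and 7 reads. It was at 0 in the alive library, where 0 reads allow an RPKM of up to 0.0265. PTGER2, the other cyclic AMP-coupled E2 receptor on the list, had 0 reads in each library, and with no read its implied length and so its limit cannot be given.

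Genes are called apart here where 3 things hold: a scaled ratio of 4-fold or more, an interval that excludes 1, and 30 or more reads in the higher library. HPGDS was the 1 member that met this rule, on the low side for spontaneous abortion against alive and on the high side for stillborn against spontaneous abortion. In each pair 5 members had the 30 reads. Over all genes with that depth, 3.80% were apart in spontaneous abortion against alive, 1.51% as lower, and 4.49% in stillborn against spontaneous abortion, 2.82% as higher. For stillborn against alive 0 members were apart, where 7.95% of 13398 genes were. At 2-fold, PTGES and HPGDS were counted as higher and PTGES2 as lower in the stillborn against the alive library, beside 25.5% of all genes in either direction, 13.0% as higher and 12.5% as lower. PTGES2 joined HPGDS in stillborn against spontaneous abortion, beside 15.1% (7.53% higher, 7.52% lower), while HPGDS stayed the 1 member in spontaneous abortion against alive, beside 13.4% (7.67% higher, 5.71% lower).

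Both losses were also modelled together against the alive library with limma on TMM-scaled log2(RPKM + 0.1), on the 10229 genes whose mean RPKM was 1 or more. This leaves 1 residual degree of freedom and assumes that the lone alive sample varies as the losses do. Of 4 members tested, HPGD, HPGDS, PTGES and PTGES3, 0 were called after Benjamini-Hochberg adjustment, as against 0.156% of all genes. For PTGES limma gave 1.15 on the log2 scale with an SE of 0.46 and an adjusted p = 0.513, with both losses above the alive library. It was the 1 member with an unadjusted p below 0.05, as 9.09% of all genes tested had, and 0 members had one without the filter on low values or with limma-voom on the recovered reads. The losses are unlike pregnancies treated as replicates, so this fit supports no difference for PTGES. HPGDS had a log2 difference of -1.01 with an SE of 1.62, since the losses lay on opposite sides of the alive library.

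Beyond the 10 genes, 76 of 86 listed genes of arachidonate release, other prostanoid enzymes, transport, receptors, lipoxygenases, annexins and labour were in the tables. In stillborn against alive, 3 were apart as higher and 2 as lower out of 46 with 30 reads, beside 4.70% and 3.25% of all genes. In spontaneous abortion against alive 1 was higher and 2 lower of 46, beside 2.30% and 1.51%. In stillborn against spontaneous abortion 2 were higher and 0 lower of 45, beside 2.82% and 1.66%. On the TMM-scaled log2(RPKM + 0.1) scale, the median difference over the 35 whose mean RPKM was 1 or more was -0.10, 0.01 and -0.14 in these 3 pairs. Over all such genes it was -0.01, -0.01 and -0.02.

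**Figure D5:**
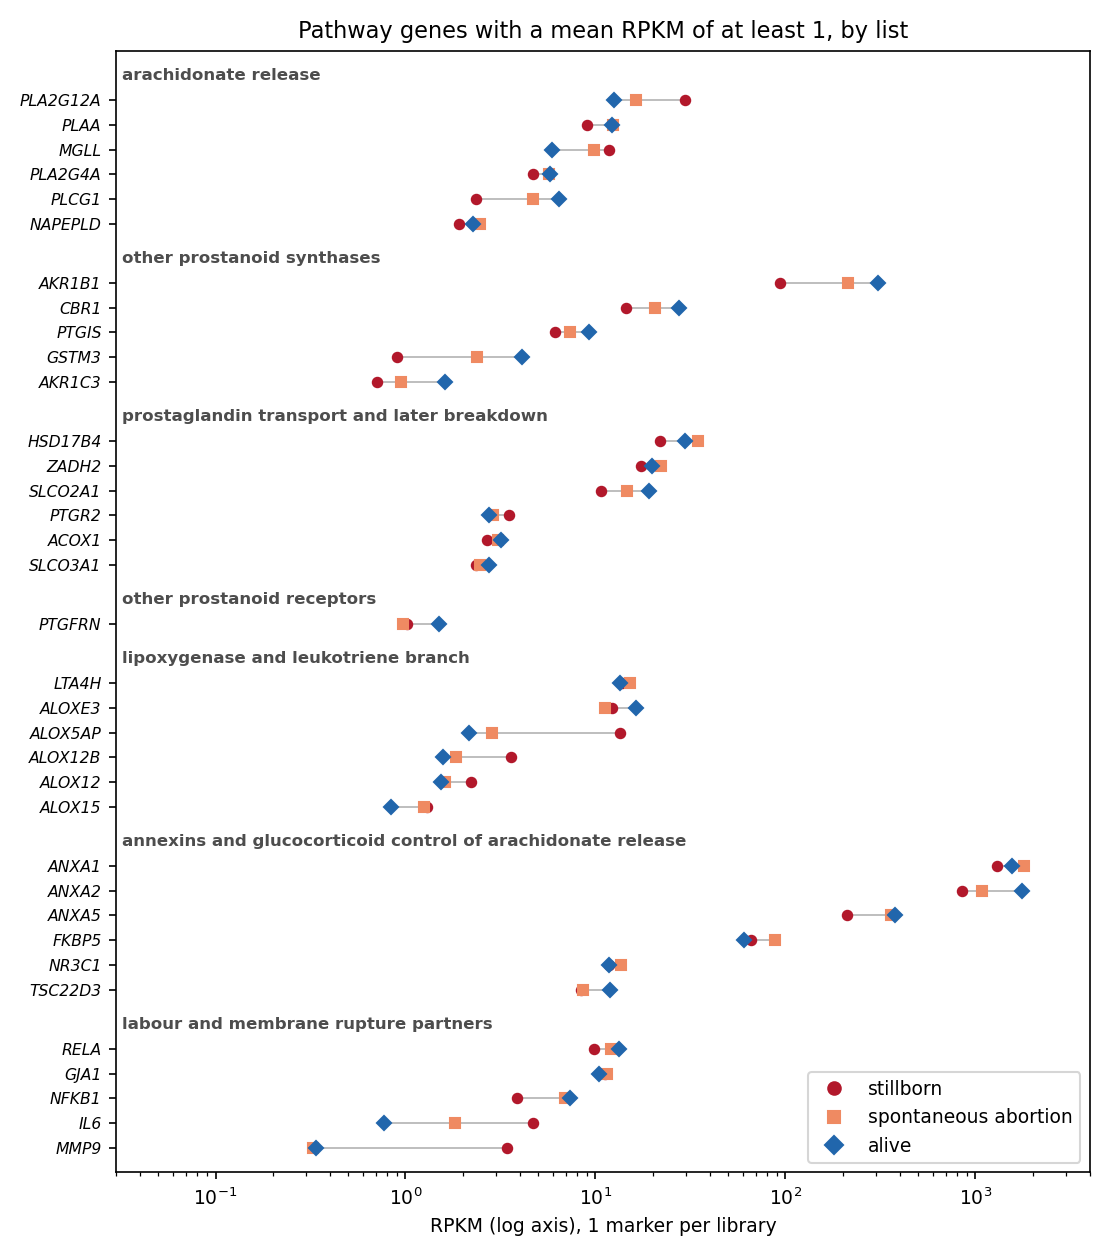
RPKM in each library, on a log axis, of the 35 pathway genes whose mean RPKM was 1 or more, grouped by list. ALOX5AP and MMP9 stand out in the stillborn library, and the 5 prostanoid synthases above that level share the order alive, spontaneous abortion, stillborn.

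Upstream of the cyclooxygenases, the secreted phospholipase PLA2G12A and the phospholipase A2 activating protein PLAA had the highest mean RPKM over the libraries of their list, although the monoglyceride lipase MGLL, at 11.8, was above PLAA in the stillborn library. PLA2G12A was at RPKM 29.6 (stillborn), 16.4 (spontaneous abortion) and 12.6 (alive), 2.63-fold higher in the stillborn than the alive (2.34 to 2.96). PLAA was at 9.06, 12.4 and 12.3. The inflammatory phospholipase PLA2G2A went the other way from PLA2G12A. Its RPKM was 0.108, 0.201 and 0.853, and it was apart as lower in both losses, 7.07-fold in the stillborn (3.24 to 18.3) and 4.12-fold in the spontaneous abortion (2.5 to 7.04). PLA2G4A, the cytosolic phospholipase that releases arachidonic acid and is named here after its values were seen, was at 4.71, 5.67 and 5.78. Its ratios to the alive library were within counting error, at 1.10-fold lower (0.981 to 1.23) and 1.01-fold higher (0.915 to 1.11).

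The other prostanoid enzymes did not share 1 order. FAM213B, a prostaglandin F synthase also called PRXL2B, was ordered like PTGES, at RPKM 0.981 (stillborn), 0.799 (spontaneous abortion) and 0.322 (alive) on at least 166, 228 and 62 reads. It was 3.41-fold (2.53 to 4.64) and 2.55-fold (1.92 to 3.44) higher in the losses than in the alive fluid, and is named after its values were seen. CBR3 was within counting error in each pair. The 5 genes whose mean RPKM was 1 or more, a level that leaves out FAM213B, were ordered like HPGD. All 5 were below 0 in each of the 3 pairs, with a median log2 difference of -0.95 for stillborn against alive, -0.49 for spontaneous abortion against alive and -0.39 for stillborn against spontaneous abortion. The pairs share libraries, so these are not separate observations. Of all 10229 genes at that level, 5203, 5157 and 5322 were below 0 in the same 3 pairs. Between the losses, PTGIS at 1.11-fold (0.927 to 1.32) and the F synthase AKR1C3 at 1.24-fold (0.698 to 2.30) were within counting error. AKR1B1, an aldose reductase that can form prostaglandin F2 alpha, led at RPKM 94.1 (stillborn), 213 (spontaneous abortion) and 307 (alive). It was 2.92-fold lower in the stillborn than in the alive library (2.80 to 3.05). CBR1, a carbonyl reductase that converts the E2 to the F2 alpha form, was at 14.5, 20.6 and 27.5. The glutathione transferase GSTM3 was at 0.897, 2.38 and 4.12 and was apart as lower in stillborn against alive, 4.11-fold (2.43 to 7.37). PTGIS was at 6.11, 7.34 and 9.30. The thromboxane synthase TBXAS1 had at least 3 reads in the stillborn library and 0 in the others, and the lipocalin-type D synthase PTGDS had 0, 10 and 9. These last 3 were named after their values were seen.

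On the side of clearance, HSD17B4, a peroxisomal enzyme of fatty acid oxidation, was at RPKM 22.0, 34.9 and 29.7, with libraries ordered as above. ZADH2, a prostaglandin reductase also called PTGR3, was at 17.4, 22.1 and 20.0. No gene of this list was apart in any pair. SLCO2A1, the carrier that brings prostaglandins to HPGD inside the cell, was picked after its values were seen. It was at 10.8, 14.7 and 19.1, 1.59-fold lower in the stillborn than in the alive library (1.42 to 1.78), the same order as HPGD. Of the other receptors, PTGDR2, a receptor for prostaglandin D2 on type 2 immune cells, was at 0.444, 0.646 and 1.80. It was 3.64-fold lower in the stillborn (2.64 to 5.12) and 2.71-fold lower in the spontaneous abortion (2.15 to 3.44) than in the alive library. PTGFRN, a membrane protein that binds the F2 alpha receptor, was at 1.01, 0.974 and 1.51.

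In the lipoxygenase and leukotriene branch, the activating protein ALOX5AP was at RPKM 13.4 (stillborn), 2.84 (spontaneous abortion) and 2.16 (alive). It was apart as higher in the stillborn library, 6.95-fold over the alive (4.92 to 10.1) and 5.14-fold over the spontaneous abortion (3.94 to 6.77). The myeloid marker sums given beside HPGDS were also highest there, and their part was not tested. ALOX15B, a 15-lipoxygenase of epithelia and macrophages, was at 0.129, 0.0822 and 0.509 and apart as lower in spontaneous abortion against alive, 6.02-fold (3.96 to 9.44). LTA4H, the leukotriene A4 hydrolase, was at 13.8, 15.2 and 13.4, and the epidermal lipoxygenase ALOXE3 at 12.2, 11.2 and 16.3.

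ANXA1 and ANXA2, membrane-binding annexins of which ANXA1 is known as a glucocorticoid-induced inhibitor of arachidonate release, had the highest RPKM on any of these lists. ANXA1 was at RPKM 1304 (stillborn), 1813 (spontaneous abortion) and 1564 (alive), and ANXA2 at 850, 1082 and 1758. Of the 9 genes on that list, 0 were apart in any pair. Among partners in labour and membrane rupture, GJA1, the connexin 43 of the contracting myometrium, was at 11.2, 11.4 and 10.4, and RELA, an NF-kB subunit, at 9.83, 12.1 and 13.4. MMP9, a gelatinase, was at 3.43, 0.327 and 0.337 and apart as higher in the stillborn library, 11.4-fold over the alive library (6.77 to 20.4) and 11.4-fold over the spontaneous abortion (7.30 to 18.6). The cytokine IL6 was at 4.71, 1.82 and 0.774, apart as 6.80-fold higher in stillborn against alive (4.72 to 10.1). CRHBP, the binding protein of corticotropin-releasing hormone, was at 0.228, 0.320 and 0.0526 and apart as 6.25-fold higher in spontaneous abortion against alive (2.49 to 20.2), on at least 45 and 5 reads.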

How the data were processed

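Cell-free RNA of amniotic fluid supernatant was amplified by single-primer isothermal amplification and sequenced on a HiSeq2500, per the labels' protocols. Tools listed in the submitters' processing notes are bcl2fastq 2.17, STAR and HTSeq, with genome build, annotation and strandedness not given in the sources used here. Deposited values are RPKM, 1 per gene and library. Totals were solved as the numbers for which RPKM times total is a ratio of whole reads to whole length. All 47 genes used to fix them gave whole numbers at the chosen totals and 0 at the next best, and 99.5% of 23276 genes above 0 gave whole reads within rounding. TMM (trimmed mean of M-values) factors were 0.937 (stillborn), 1.02 (spontaneous abortion) and 1.05 (alive). Intervals are exact Clopper-Pearson at 95%, conditional on the sum of both reads. Without molecular identifiers, amplified copies of a molecule cannot be told from separate molecules. The intervals thus cover the counting error of reads only, not that of molecules. Python 3.11.15, scipy 1.17.1, R 4.3.3 and limma 3.58.1 were used. The read recovery, the calls between pairs of libraries and the limma fit were tested on simulated data.

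All 10 members were described. Pathway genes were named when apart in a pair or among the 2 with the highest mean RPKM of their list. Other pathway genes in the text, MGLL, CBR3 and AKR1C3 among them, lie outside this rule and were named after their values were seen. The members and lists were chosen with earlier results of these data known. Alternatives changed the scaling, fold, minimum reads, depth, pseudocount and filter. No gene of the RefSeq table overlapped a member there. Names matched that table for 10 of 10 members, and its build is not known to be that of the files, so no coordinates are given.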

Additional observations from a re-analysis of the deposited data

How the results depend on the processing

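HPGDS kept its place as the 1 member apart in spontaneous abortion against alive under all 6 alternatives. In stillborn against spontaneous abortion it was the 1 member under 5 of them. At 2-fold in place of 4-fold the members apart numbered 3 in stillborn against alive and 2 in stillborn against spontaneous abortion. The pathway genes apart in stillborn against alive were 14 at 2-fold, 10 with at least 10 reads in the higher library and 10 with no minimum. In spontaneous abortion against alive they were 8, 6 and 7 under the same settings, and 1 after thinning all libraries to the shallowest. In stillborn against spontaneous abortion they were 7, 6 and 9. The other 28 of 40 recomputed counts, those under other scalings included, stayed within 1.5 times. Of 88 recomputed log2 ratios of members, 12 rest on a library with 0 reads and have no interval to be judged by. Of the other 76, 75 moved by less than the half-width of their interval. The exception was HPGDS in stillborn against spontaneous abortion, at 3.0 with a pseudocount of 1 and 5.24 with 0.1. In spontaneous abortion against alive HPGDS went from -3.63 to -1.66 with the same change, a difference under 4-fold. The losses against alive gave 0 called members under each of 4 alternatives, while the genes called over the whole table went from 16 to 0 with no filter, where limma gave 1554 genes an unadjusted p below 0.05; limma-voom called 12 as higher and 2 as lower. No paired analysis was possible because each status has 1 sample. Leaving out a loss leaves no residual degree of freedom, so those values are the pairs of libraries themselves. On recovered reads, which are lower bounds, depth limits PTGS1, PTGS2, PTGER2, PTGER4 and PTGFR, with fewer than 30 in every library.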

Other observations

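The gene lengths implied by the deposited RPKM values rose in step with the number of transcripts that the RefSeq table lists for a gene. Over genes with more than 300 summed reads, the median implied length was 2613 bases for the 2856 genes with 1 transcript and 5207 bases for the 1859 genes with 2. It was 7836 bases with 3 transcripts, 10417 with 4 and 13246 with 5. For 684 of 8670 genes compared (7.9%) the implied length was above the genomic span of the gene in that table, whose build is not known to be that of the files. For the members, the smallest lengths that gave whole reads were 3221 bases for HPGD, 1779 for PTGES, 2317 for PTGES2 and 5873 for PTGES3. They were shortest for HPGDS, at 886 bases with 2 transcripts, and PTGER4, at 962 bases with 1. A true length that is a multiple of the smallest would raise the reads by the same factor and narrow the intervals. Ratios of a gene between libraries do not depend on its length, while the order of genes by RPKM within a library does.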
